A study of Mus musculus with 7 samples.

Results

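Neutrophils carrying Hashtag1, Hashtag2, Hashtag3, Hashtag4 or Hashtag5 in a pooled blood and heart library were compared with one another. A hashtag is an antibody with a DNA barcode that marks all cells of 1 sample before the samples are pooled. A cell was taken when it had at least 200 genes, at most 10% mitochondrial UMIs (unique molecular identifiers, counted transcripts), a top hashtag count of at least 10 that was at least 3 times the second, and at least 5 UMIs of the Ly6G surface antibody. Of 11826 barcodes 11592 passed the gene and mitochondrial limits, 10329 had 1 hashtag, and 6702 of these were neutrophils by that rule. The 5 sets held 5529 of them, with 1100, 1225, 1104, 1084 and 1016 cells from Hashtag1 to Hashtag5, and Hashtag6 (722 cells) and Hashtag7 (451 cells) were left out.

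The series measured leukocytes of the mouse heart after myocardial infarction in 7 droplet single-cell libraries, of which 1 is used here. The library used here was made of viable CD11b+ cells, sorted as Ter119-, B220- and NK1.1-, of C57BL6/J mice aged 8 to 10 weeks, taken from their blood or from infarcted heart tissue. The conditions named in the labels were no surgery (3 mice), sham surgery at day 1 (3 mice) and at day 3 (3 mice), and permanent ligation of the left coronary artery at day 1 (5 mice) and at day 3 (5 mice). The sex of these mice is not given there. The labels do not pair any of the 7 hashtags with a condition or with blood or heart, so the sets are unmapped and are called by their hashtag only. Ly6G+ and Ly6G- cells were brought to about equal numbers in the sort and the samples were pooled in about equal parts, so the numbers of neutrophils per set were set by that step.

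Each hashtag was 1 pooled set within 1 library, with no replicate set, so no test was possible and no p-value is given. Levels are CPM, the UMIs of a gene per 1000000 UMIs of the summed cells of a set, and ranges in parentheses are exact Poisson 95% intervals that cover counting error only. The sums held 4210269, 5759379, 4672347, 5154861 and 4217913 UMIs from Hashtag1 to Hashtag5, with medians of 3230.5, 3909, 3746, 3706 and 3386 UMIs per cell. All lists of 5 values below follow that order. A gene was called higher or lower in a set when its CPM was at least 1.5 times above or below the mean of the other 4 sets and outside their range, among 4484 genes with a mean of at least 20 CPM. Every set is part of the reference of the other 4, so the 5 comparisons share data.

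Neutrophils are short-lived granulocytes that leave the bone marrow with granules of stored antimicrobial proteins and enter injured tissue early, including the infarcted heart. Interferons bind receptors on these cells and, through a small set of transcription factors, switch on a shared set of interferon-stimulated genes. Stefins are small cytosolic inhibitors of cysteine cathepsins, and a cluster of mouse stefin A genes is active in neutrophils. Of their chemokine receptors, CXCR2 draws the cell out of the marrow and CXCR4 holds it there.

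Promoters of 5 interferon-stimulated genes that were called lower in Hashtag4 are shown, since that group was the one with most called members. They are RefSeq sequences on build GRCm38.p6, 250 bases before to 50 after a RefSeq start of the gene, 5′ to 3′ on the strand of the gene. For Slfn5 that start is not the one of the gene coordinates given below, and its window lies wholly inside them. Capitals mark 2 copies of GAAA with 2 bases of any kind between them, on either strand (overlapping matches are merged), the core of the element that interferon-activated transcription factors bind.
Isg15, chr4:156200769-156201068, minus strand: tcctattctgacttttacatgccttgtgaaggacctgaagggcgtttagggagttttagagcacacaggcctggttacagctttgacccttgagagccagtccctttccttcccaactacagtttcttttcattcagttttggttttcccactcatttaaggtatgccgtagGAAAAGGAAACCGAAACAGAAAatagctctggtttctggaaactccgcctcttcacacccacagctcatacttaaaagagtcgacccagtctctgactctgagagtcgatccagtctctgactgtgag
Ifit1, chr19:34640639-34640938, plus strand: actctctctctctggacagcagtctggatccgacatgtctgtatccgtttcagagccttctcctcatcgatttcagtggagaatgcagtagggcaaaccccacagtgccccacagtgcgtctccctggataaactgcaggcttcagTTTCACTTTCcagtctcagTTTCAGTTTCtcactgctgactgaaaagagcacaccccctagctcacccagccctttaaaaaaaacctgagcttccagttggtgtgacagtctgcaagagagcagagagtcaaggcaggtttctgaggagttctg
Rsad2, chr12:26456403-26456702, minus strand: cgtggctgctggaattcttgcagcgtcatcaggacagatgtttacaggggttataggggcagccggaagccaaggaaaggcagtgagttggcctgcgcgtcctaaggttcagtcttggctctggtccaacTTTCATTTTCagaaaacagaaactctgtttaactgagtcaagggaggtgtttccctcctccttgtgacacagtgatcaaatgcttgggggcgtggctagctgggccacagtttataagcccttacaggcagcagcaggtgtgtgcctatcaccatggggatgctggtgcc
Slfn5, chr11:82951852-82952151, plus strand: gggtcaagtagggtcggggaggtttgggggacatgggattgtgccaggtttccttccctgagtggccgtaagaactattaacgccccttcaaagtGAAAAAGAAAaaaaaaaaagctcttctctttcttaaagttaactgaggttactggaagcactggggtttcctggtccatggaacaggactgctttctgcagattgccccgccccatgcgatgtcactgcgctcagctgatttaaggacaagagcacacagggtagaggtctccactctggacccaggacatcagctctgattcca
Oasl1, chr5:114922990-114923289, plus strand: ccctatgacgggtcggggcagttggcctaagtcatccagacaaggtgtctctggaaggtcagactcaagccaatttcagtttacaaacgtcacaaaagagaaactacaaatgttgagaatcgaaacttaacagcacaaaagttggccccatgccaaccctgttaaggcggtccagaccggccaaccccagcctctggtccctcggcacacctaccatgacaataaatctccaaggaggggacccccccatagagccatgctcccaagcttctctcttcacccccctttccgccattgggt
Isg15 encodes a ubiquitin-like modifier, Ifit1 an RNA-binding effector, Rsad2 the enzyme viperin, Slfn5 a schlafen protein and Oasl1 an OAS-like protein. The letters were found in 3.44% of all 32851 promoters of the table and in 1 or more promoters of 3.99% of its 27025 genes. Of 34 listed interferon-stimulated genes that matched the table, 19 held them, and 9 of the 15 matched genes called in any set without the marker-rich cells described below. The window of Oasl1 did not hold them. A match describes the letters and is not a measured binding site.

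The label of the cells was checked against markers. Neutrophil marker UMIs (16 genes) outnumbered monocyte/macrophage marker UMIs (19 genes) in 5484 of 5529 cells (99.2%) and in 302 of the 3054 cells of the same sets under 5 Ly6G UMIs (9.89%). At the threshold itself this held in 77 of 92 cells with 5 Ly6G UMIs and in 62 of 100 cells with 4. Csf3r, the receptor for the growth factor G-CSF, had 2944, 3137, 3378, 2973 and 3079 CPM. The most abundant pair, S100a8 and S100a9, subunits of calprotectin, had 71587, 85188, 77768, 75243 and 66582 CPM and 86793, 110301, 93014, 93149 and 82052 CPM. Both values are levels in the same order of sets, lowest in Hashtag5 and highest in Hashtag2. The 6 fibroblast markers were at 0 in every set. The 8 cardiomyocyte markers summed to between 14.6 and 30.4 CPM, nearly all of it Myl2, a myosin light chain gene called higher in Hashtag3 and lower in Hashtag2, while Myh6, Actc1, Myl3 and Mb were at 0. The 8 eosinophil markers summed to between 53.5 and 143 CPM, mostly Ear2 (described with Hashtag2) and Siglecf, with Epx, Prg2, Prg3 and Ear1 at 0. Endothelial markers (6 genes) summed to between 21.6 and 56.4 CPM, with Fabp4 called higher in Hashtag2 and lower in Hashtag1. B cell markers (5 genes) summed to between 3.56 CPM (Hashtag1) and 25.2 CPM (Hashtag4). T cell markers (6 genes) summed to between 6.42 CPM (Hashtag3) and 19.8 CPM (Hashtag2). Platelet markers (6 genes) summed to between 5.90 CPM (Hashtag2) and 66.4 CPM (Hashtag5). No marker of these lists reached a mean of 20 CPM, so none could be called. None of the barcodes was shared with the 5 CD45+ heart libraries, and 28 barcodes, 15 of them of these neutrophils, were also in the other pooled library.

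A part of the cells that pass the rule also held many monocyte/macrophage transcripts. At least 10 UMIs of the 19 markers were found in 363 cells (6.57%), called marker-rich below, with 177 cells between 7 and 12 such UMIs. In 318 of these 363 cells neutrophil marker UMIs still outnumbered monocyte/macrophage marker UMIs, so that check could not set them apart. The marker-rich cells had a median of 12345 UMIs per cell against 3523.5 in the other 5166 cells. They made up 5.00%, 8.73%, 3.71%, 9.32% and 5.81% of the 5 sets. The 19 markers together had 2034, 1860, 1217, 2242 and 1812 CPM in all cells, 600.2, 635, 609, 616 and 595 CPM without the marker-rich cells, and between 8974 and 11824 CPM in the cells under 5 Ly6G UMIs. Csf1r, the receptor for macrophage growth factor, had 189.5, 255, 190.5, 268 and 241 CPM in all cells and 135, 137, 150.5, 146 and 166 CPM without the marker-rich cells. No doublet caller was run, and the hashtag rule removes only doublets of different hashtags. Counts of calls are therefore also given without the marker-rich cells, as are the calls of most genes described, a choice made after the data were seen, where 4134 genes had a mean of at least 20 CPM.

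By the share of genes at least 1.5-fold apart, Hashtag2 and Hashtag4 were the most alike of the 10 pairs and Hashtag1 and Hashtag4 the least alike. By the median absolute log2 difference without the marker-rich cells, Hashtag1 and Hashtag2 (0.212) were further apart than Hashtag1 and Hashtag4 (0.207). Between Hashtag2 and Hashtag4, 73 of 4484 genes (1.63%) were at least 1.5-fold apart, and 87 of 4134 (2.10%) without the marker-rich cells. Between Hashtag1 and Hashtag4 the numbers were 455 (10.1%) and 411 (9.94%). Hashtag3 and Hashtag5 differed in 205 genes (4.57%) in all cells and in 93 (2.25%) without the marker-rich cells, which then was the second-lowest of the 10 values. Hashtag3 and Hashtag4 went from 407 genes (9.08%) to 206 (4.98%).

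**Figure D1:**
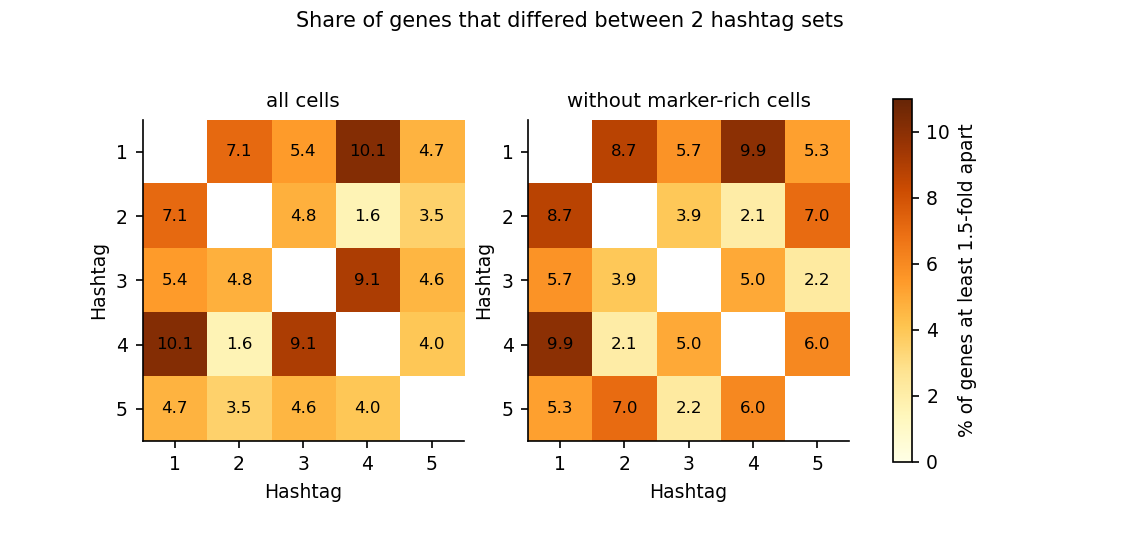
Share of genes, in percent, whose CPM differed at least 1.5-fold between 2 hashtag sets, for all neutrophils (left) and without the marker-rich cells (right); rows and columns are Hashtag1 to Hashtag5 and the colour gives the share. Hashtag2 and Hashtag4 have the lowest share in both panels and Hashtag1 and Hashtag4 the highest.

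Against the mean of the other 4 sets, 420 of 4484 genes (9.37%) were called in at least 1 set, 182 of them in more than 1. Without the marker-rich cells 358 of 4134 (8.66%) were called, and 220 genes were called both ways. By set, 176 (3.93%), 46 (1.03%), 173 (3.86%), 170 (3.79%) and 37 (0.825%) genes were called in all cells, and 192 (4.64%), 77 (1.86%), 35 (0.847%), 118 (2.85%) and 57 (1.38%) without the marker-rich cells. Calls of Hashtag1 changed least in number, from 80 genes higher (1.78%) and 96 lower (2.14%) to 95 (2.3%) and 97 (2.35%), with 64 and 61 genes in common. In Hashtag3 the 162 genes called lower (3.61%) became 20 (0.484%), with 14 in common. In Hashtag4 the 113 genes called higher (2.52%) became 35 (0.847%), with 18 in common.

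**Figure D2:**
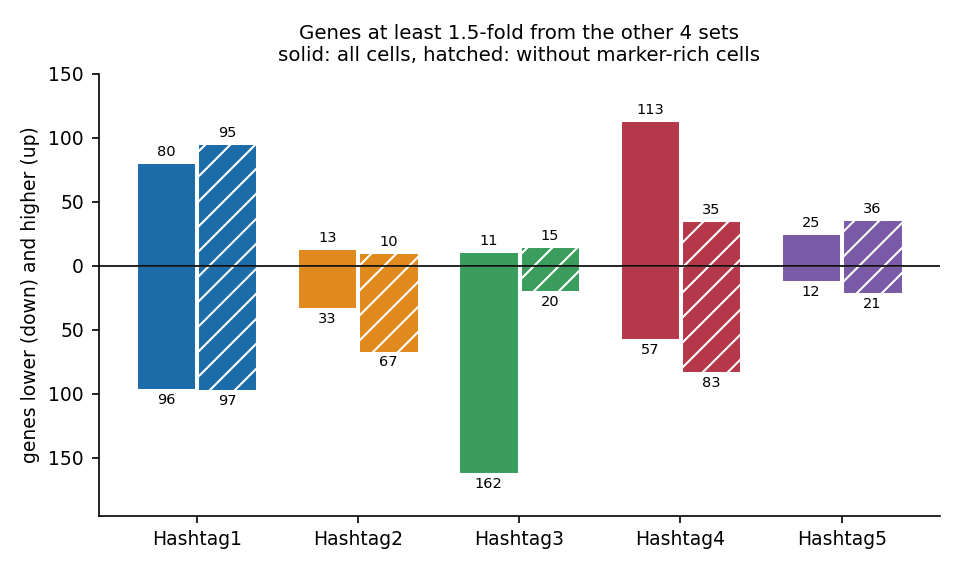
Number of genes called higher (bars up) and lower (bars down) in each hashtag set against the mean of the other 4, for all neutrophils (solid) and without the marker-rich cells (hatched). The 162 lower genes of Hashtag3 and the 113 higher genes of Hashtag4 drop to 20 and 35 without these cells.

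Hashtag4 neutrophils had the lowest levels of most genes of the interferon-stimulated list. Ifitm1, an interferon-induced gene outside that list, was not lowest there and is described with Hashtag1. Of 37 measured genes of that list, 18 were called lower in Hashtag4 and 0 higher, where 1.27% of all 4484 genes were called lower (57 genes). Their median log2 ratio to the other sets was -0.55 against -0.0016 over all genes, and 31 of 37 had their lowest level of the 5 sets there. Without the marker-rich cells 20 of 34 were called lower and 0 higher (background 2.01%, 83 of 4134 genes), with a median of -0.70. Of 17 alternatives 12 changed the scaling, the cells or the average of the other sets, and under these 18 to 22 were called lower and 0 higher. Of the other 5, a 2-fold limit and the nearest set as reference each gave 10 of 37 lower, a mean of at least 100 CPM gave 7 of 15, at least 50 Ly6G UMIs gave 10 of 33, and no low-value filter gave 20 of 44, with 0 higher in each. In the other sets the medians over the 37 genes were 0.30 in Hashtag1, 0.04 in Hashtag2, 0.25 in Hashtag3 and -0.15 in Hashtag5.

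**Figure D3:**
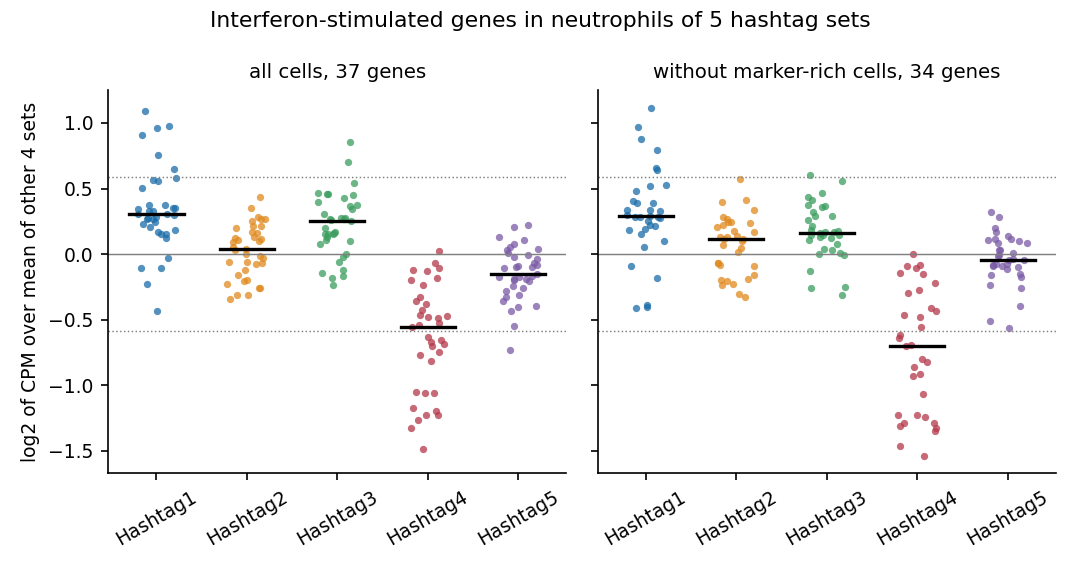
Log2 ratio of each interferon-stimulated gene's CPM in a hashtag set to its mean in the other 4 sets, 1 point per gene, with the median as a black bar and dotted lines at 1.5-fold, for all neutrophils (left, 37 genes) and without the marker-rich cells (right, 34 genes). The Hashtag4 medians of -0.55 and -0.70 lie below those of the other sets.

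Isg15 (ENSMUSG00000035692, chromosome 4, 156199424 to 156200818) had 273, 202, 263, 101 and 205 CPM. The Hashtag4 value (92.6 to 110.1) lay below the intervals of all others, of which the nearest was Hashtag2 (191 to 214), and its log2 ratio was -1.22. Rsad2 (ENSMUSG00000020641, chromosome 12, 26442746 to 26456452) had 224, 115, 159.7, 62.3 and 125 CPM, so that Hashtag1 (210.4 to 239) was called higher and Hashtag4 (55.6 to 69.5) lower. Rsad2 differed 3.60-fold between these sets, more than any other of the 37 genes. Slfn5 (ENSMUSG00000054404, chromosome 11, 82951349 to 82964840) had 306, 203, 269, 102 and 205 CPM, also highest in Hashtag1 and lowest in Hashtag4. Ifit1 (ENSMUSG00000034459, chromosome 19, 34640871 to 34650009) had 81.9, 76.6, 92.9, 34.3 and 62.6 CPM. Oasl1 (ENSMUSG00000041827, chromosome 5, 114923240 to 114937915) had 57.004, 59.6, 62.7, 20.2 and 46.7 CPM. Both were highest in Hashtag3 and lowest in Hashtag4. The log2 ratios of Hashtag4 without the marker-rich cells were -1.24 for Isg15, -1.28 for Rsad2, -1.54 for Slfn5, -1.29 for Ifit1 and -1.46 for Oasl1.

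Of the regulators of the response some were called and some were not. Irf7, the transcription factor that amplifies the response, had 109.97, 112, 118, 70.6 and 103 CPM and was called lower in Hashtag4. Usp18, the protease that removes ISG15 from proteins, had 35.6, 19.3, 25.9, 12.03 and 18.7 CPM and was also called lower there. Both calls were made without the marker-rich cells too, with log2 ratios of -0.82 and -1.23. Stat2, a transcription factor of interferon signalling, had 37.1, 31.8, 29.3, 32.2 and 28.2 CPM, with no call in any set. Ifitm3, an antiviral membrane protein, had 1859, 2280.3, 1903, 1844 and 1958 CPM, also without a call. Cmpk2, a nucleotide kinase gene next to Rsad2, had 64.6, 32.8, 45.4, 20.95 and 32.01 CPM and was called higher in Hashtag1 and lower in Hashtag4. In Hashtag1, 6 of 37 genes were called higher (background 1.78%: Rsad2, Usp18, Ifi209, Cmpk2, Slfn5 and Slfn8) and 0 lower. In Hashtag3, Ifit3 and Ifit3b, near-identical copies between which reads can be split, were called higher, and without the marker-rich cells only Ifit3 was.

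Hashtag4 was also lowest in UMIs of the list per cell. With each cell reduced to 1000 UMIs and marker-rich cells left out, the 10th, 50th and 90th percentiles of UMIs from the list were 1, 5 and 11 in Hashtag4 and 2, 6 and 16 to 18 in the other sets. Cells with an Isg15 UMI at 1000 UMIs were 15.9%, 14.6%, 18.7%, 7.39% and 13.3% of neutrophils, with 31%, 32.7%, 39.4%, 22.05% and 29.3% before that reduction. In the cells of the same sets under 5 Ly6G UMIs, whose median was 11968.5 UMIs against 3609, the shares with Isg15 were 12.5%, 3.596%, 9.33%, 3.498% and 7.39% at 1000 UMIs. Hashtag4 was lowest in neutrophils. In the cells under 5 Ly6G UMIs Hashtag4 and Hashtag2 were the lowest and near equal. The 95% interval of Hashtag2 there (2.24% to 5.44%) covered the Hashtag4 value. For Rsad2 the neutrophil shares were 14.9%, 9.01%, 10.7%, 4.16% and 9.19% and those of the other cells 3.704%, 1.88%, 3.45%, 0.636% and 3.04%. A share in cells that should lack a gene cannot be had for these genes, since both kinds of cells can respond to interferon.

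Slc7a11, the cystine transporter, had 134, 59.03, 72.98, 40.5 and 68.3 CPM. Acta2, an actin gene, had 147, 62.9, 84.3, 43.8 and 64.2 CPM. Both were called lower in Hashtag4 and higher in Hashtag1, as was Csf1, the macrophage growth factor, described with Hashtag1. All 3 genes had the same calls without the marker-rich cells. Of 11 specific granule genes 4 were then called higher in Hashtag4 (Ngp, Lcn2, Cd177 and Chil3; background 0.847%), against 1 of 12 in all cells (background 2.52%) and 0 to 4 over the 12 alternatives. Without those cells Chil3, a chitinase-like protein, had 45.6, 53.9, 46.6, 124 and 55.97 CPM. Cd177, a neutrophil surface glycoprotein, then had 65.6, 77.1, 66.1, 118 and 65.4 CPM. Hashtag4 was the highest set for both. In all cells Chil3 had 209.96, 449.9, 284, 561 and 457 CPM, above its level without the marker-rich cells in every set. The part of any remaining monocyte/macrophage transcripts in the Chil3 call was not tested. Wfdc17, a small secreted protein of the WAP family, had 1868, 7651, 4788, 8012 and 4861 CPM, with Hashtag4 and Hashtag2 the highest and Hashtag1 the lowest set.

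The 4 genes with the highest ratios in Hashtag4 rested on few or on marker-rich cells. Igkc, an immunoglobulin light chain gene, had 18.1, 15.97, 17.3, 742 and 16.8 CPM, and 3741 of its 3825 UMIs in Hashtag4 were in 1 cell. Igha, a heavy chain gene, had 1192 of 1233 UMIs in 1 cell. The class II antigen presentation genes H2-Aa and H2-Eb1 were the others. H2-Aa had 59.6, 130.2, 136, 363 and 55.2 CPM in all cells and 11.97, 13.9, 11.3, 19.7 and 13.6 CPM without the marker-rich cells. H2-Eb1 had 46.6, 91.2, 99.3, 282 and 42.2 CPM and 9.41, 6.82, 7.93, 15.9 and 18.7 CPM. Hashtag4 was no longer the highest set for H2-Eb1 without these cells. Of 11 genes of the antigen presentation list 4 were called higher in Hashtag4 (background 2.52%), and without these cells 1 of 7 (background 0.847%), Cd74, with 55.03, 37.8, 38.2, 83.5 and 64.9 CPM. The 5 B cell markers then summed to 2.57, 0.91, 2.64, 24.3 and 16.3 CPM, also highest in Hashtag4, and their part in the Cd74 call was not tested. The scaling moved the balance of the calls: with TMM factors (0.960 to 1.03) 80 genes were higher and 73 lower in Hashtag4, in place of 113 and 57.

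Hashtag5 neutrophils had the highest levels of stefin genes. The list held 6 measured stefin A genes of the cluster on chromosome 16 and Asprv1, an aspartic protease gene on chromosome 6. All 7 were called higher in Hashtag5, where 0.558% of all 4484 genes were (25 genes). The median log2 ratio was 0.79, and 0.84 without the marker-rich cells, where all 7 were again called (background 0.871%). Hashtag2 was the lowest set for 4 of the 7, which were called lower there, against a background of 0.736%. With TMM factors 6 of 7 were called higher in Hashtag5, and with a 2-fold limit or the nearest set as reference 3 of 7, and in the cells with at least 50 Ly6G UMIs 2 of 5.

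Stfa2l1 (stefin A2 like 1, ENSMUSG00000059657, chromosome 16, 36156811 to 36161953) had 745, 983, 1506, 1045 and 1855 CPM, with intervals that did not overlap between Hashtag5 (1814 to 1897) and the next set, Hashtag3 (1471 to 1542). Gm5483, another stefin A gene of the cluster, had 761, 729.8, 1155, 674 and 1418 CPM, with the same highest and next set. BC100530 (ENSMUSG00000071561, chromosome 16, 36359382 to 36367748) had 63.2, 21.9, 68.9, 39.6 and 132 CPM, a 6.03-fold range from Hashtag2 to Hashtag5. Stfa1 had 141, 123, 272, 140.3 and 279.996 CPM, so that Hashtag5 (264 to 296) and Hashtag3 (257 to 287) overlapped. Stfa2 had 18.8, 13.02, 37.7, 20.4 and 64.01 CPM, and 5 cells held 50.4% of its UMIs in Hashtag5. Stfa3 had 15.9, 8.16, 20.97, 15.7 and 49.1 CPM. Asprv1 had 379, 308, 505, 280.1 and 625 CPM. The stefin A genes are near-identical copies, so how the reads were shared among them is uncertain, and the sum over the list was 2124, 2188, 3565, 2215 and 4424 CPM.

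**Figure D4:**
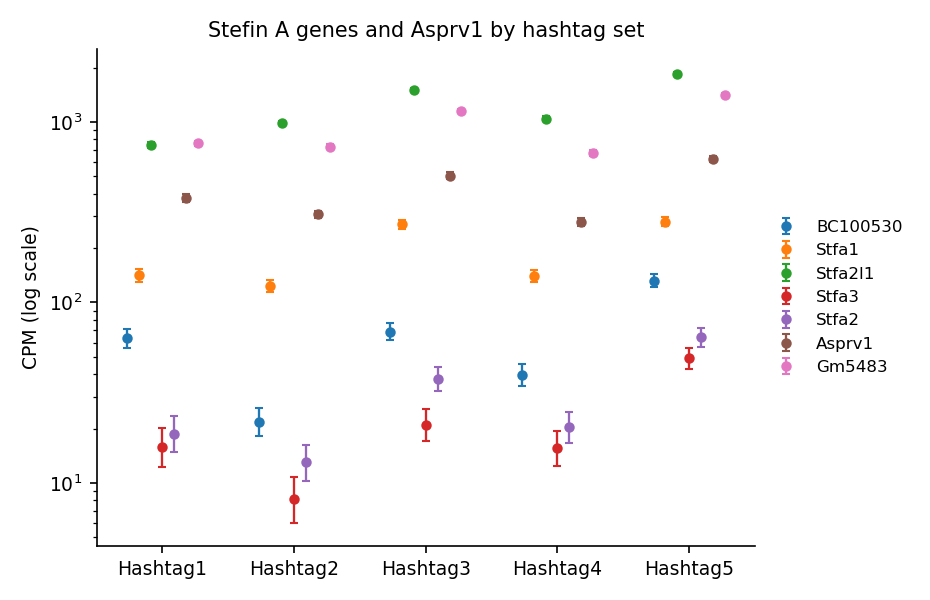
CPM of 6 stefin A genes and Asprv1 on a log axis in neutrophils of each hashtag set, with exact Poisson 95% intervals as bars. Each gene is highest in Hashtag5, with Hashtag3 next, and the overlap of these sets is closest for Stfa1.

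Stfa2l1 was seen at 1000 UMIs in 25.8%, 30.8%, 38.5%, 31.4% and 50.8% of neutrophils, and in 2.17%, 2.57%, 2.94%, 2.23% and 4.57% of the cells under 5 Ly6G UMIs, so Hashtag5 was highest in both. Cells with 0 UMIs from the list made up 24.7% in Hashtag5 and 36.6% to 48.5% in the other sets. Also higher in Hashtag5 was Tsc22d3, a leucine zipper protein induced by glucocorticoids, with 405, 371, 581, 461 and 699.9 CPM. Mif, a cytokine, had 71.5, 43.2, 52.7, 45.98 and 87.2 CPM. Both were called higher there without the marker-rich cells too. Fkbp5, another glucocorticoid-induced gene, had 22.3, 21.9, 22.04, 55.9 and 48.6 CPM and was called higher in Hashtag4 and lower in Hashtag2, so that its pattern was not that of Tsc22d3. Of 8 measured genes of the glucocorticoid list 1 was called higher in Hashtag5 (background 0.558%) and 0 lower. In Hashtag2 0 were higher and 2 lower (Fkbp5 and Il1r2, background 0.736%). The calls were the same without the marker-rich cells (backgrounds 0.871% and 1.62%). Fkbp5 in Hashtag2 (21.9 CPM) lay close to Hashtag1 (22.3) and Hashtag3 (22.04). Pmaip1, a pro-apoptotic BH3-only protein, had 48.9, 37.3, 39.2, 36.1 and 62.8 CPM and was called higher in Hashtag5 both ways.

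Genes called lower in Hashtag5 numbered 12 (0.268%) in all cells and 21 (0.508%) without the marker-rich cells, with 7 in common. Lilrb4a, an inhibitory receptor, had 191, 157, 163, 124 and 103 CPM. Basp1, a membrane-bound signalling protein, had 166, 126, 115, 101 and 80.1 CPM. Both were lowest in Hashtag5 and highest in Hashtag1, and both were called lower in Hashtag5 without the marker-rich cells too. The rule also named Ltf and Ngp as higher in Hashtag5 and H2-Aa, H2-Ab1, H2-Eb1 and Igha as lower. Ltf, lactoferrin of specific granules, had 1.19, 123, 10.7, 3.88 and 131 CPM, from 10 cells in Hashtag5, and 1.43, 39.1, 10.6, 4.33 and 2.37 CPM without the marker-rich cells. Ngp had 35.6, 368, 60.997, 107 and 408 CPM, and 41.6, 101, 60.1, 131 and 41.2 CPM without these cells, so that Hashtag5 went from the highest to the lowest set. Haemoglobin transcripts (503 CPM over 6 erythroid markers in Hashtag5, at most 3.1 in the others) came from 3 cells for Hbb-bs, 1 of which held 1139 of 1141 UMIs. With TMM factors 18 genes were higher and 27 lower in Hashtag5, in place of 25 and 12.

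Hashtag1 neutrophils had more Hcar2, Hif1a, Tlr2, Osm and Il1rn transcripts and fewer of Igfbp6, Wfdc17 and Ifitm1 than any other set. They had the most genes called, 176 (3.93%). Hcar2, the receptor for niacin and beta-hydroxybutyrate (ENSMUSG00000045502, chromosome 5, 123863570 to 123865499), had 128, 31.3, 66.99, 34.3 and 51.7 CPM, and Hashtag1 (117 to 139) was above the next set, Hashtag3 (59.8 to 74.8). Hif1a, the oxygen-sensing transcription factor (ENSMUSG00000021109, chromosome 12, 73901375 to 73947530), had 152, 74.8, 58.9, 62.7 and 85.1 CPM and a log2 ratio of 1.11 in Hashtag1. Tlr2, a receptor for bacterial lipoproteins, had 134, 57.5, 60.8, 63.4 and 78.2 CPM. Hashtag5 was the next set for Hif1a and Tlr2. Trib1, a pseudokinase that regulates C/EBP factors, had 139.7, 55.7, 56.3, 65.4 and 87.7 CPM. Cd9, a tetraspanin, had 661, 325, 458, 272 and 426 CPM. Log2 ratios of Hashtag1 for Hcar2, Hif1a, Tlr2, Trib1 and Cd9 were 1.47, 1.11, 1.04, 1.08 and 0.84, and 1.51, 1.11, 1.00, 1.22 and 1.02 without the marker-rich cells.

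Hsp90ab1, Hspa8 and Dnaja1, of 7 measured chaperone genes, were highest in Hashtag1 in all cells, and Hsp90aa1, Hspa5, Hspe1 and Dnajb1 were highest in other sets. Of the heat shock list, 2 of 7 were called higher in Hashtag1 in all cells (background 1.78%) and 3 of 6 without the marker-rich cells (background 2.3%), with median log2 ratios of 0.057 and 0.54. Under a 2-fold limit or the nearest set as reference 0 of 7 were called. Hsp90ab1, an abundant chaperone of the HSP90 family, had 447, 297, 202, 340.3 and 376 CPM in all cells and 352, 94.9, 121, 100.02 and 150.1 CPM without the marker-rich cells, a change of its ratio in Hashtag1 from 0.56 to 1.59. Hspa8, the constitutive HSP70, had 709, 355, 282, 542 and 666 CPM in all cells and 529.7, 205, 186, 278 and 399 CPM without the marker-rich cells. Dnaja1, an HSP40 partner, had 246, 122, 138, 138 and 182 CPM and 252, 121, 137, 129 and 176 CPM. Hashtag5 was the next set for all 3 chaperones both ways. Hsp90ab1 was seen at 1000 UMIs in 25.2%, 11.96%, 11.9%, 13.7% and 14.8% of neutrophils, but in 67.3%, 62.2%, 60.8%, 62.003% and 65% of the cells under 5 Ly6G UMIs, and unthinned in 52.2%, 32.4%, 35.1%, 31.8% and 34.7% of neutrophils. Hspa8 and Hsp90ab1 have near-identical processed pseudogenes, so their counts are uncertain in that respect.

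Of 8 measured cytokine genes 3 were called higher in Hashtag1 and 0 lower, in all cells (background 1.78%) and without the marker-rich cells (background 2.3%). They were Il1rn, Osm and Csf1 both ways. Il1rn, the receptor antagonist of interleukin-1, had 214, 131, 138, 112 and 133 CPM. Osm, oncostatin M, had 45.1, 20.5, 22.04, 20.6 and 22.997 CPM. Csf1 had 141, 51.9, 98.5, 47.5 and 90.3 CPM. In Osm and Il1rn the other 4 sets lay close together, whereas Csf1 was also high in Hashtag3 and Hashtag5. Il1b had 2641, 2126, 3099.5, 1909 and 2395 CPM and was not called in any set. Fos, an immediate early transcription factor, had 500.4, 298, 311, 257 and 392 CPM and was the 1 immediate early gene called higher in Hashtag1, while 12 of 15 measured without the marker-rich cells had their highest level there (30.8% of all genes did). Acod1, the enzyme that makes itaconate, had 71.5, 51.6, 23.3, 29.3 and 30.3 CPM, higher in Hashtag1 and lower in Hashtag3. Of 21 genes of the glycolysis and hypoxia list 3 were called higher (Pfkl, Slc2a1 and Hif1a; background 1.78%), and 2 of 20 without the marker-rich cells (Pgam1 and Hif1a; background 2.3%).

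The genes with the lowest Hashtag1 levels formed another group. Igfbp6 (ENSMUSG00000023046, chromosome 15, 102144362 to 102149511) had 41.8, 257, 97.6, 269 and 133 CPM, in 124, 636, 273, 595 and 298 cells, a log2 ratio of -2.18 in Hashtag1 (35.9 to 48.5) and -2.50 without the marker-rich cells. Wfdc17 (ENSMUSG00000069792, chromosome 11, 83703991 to 83706268) had a ratio of -1.76 there and -2.00 without these cells. Ifitm1, an interferon-induced membrane protein, had 2040.5, 6556, 3278, 5567 and 4191 CPM, lowest in Hashtag1 and called higher in Hashtag2. It was not part of the interferon-stimulated list, and Hashtag4 was its second-highest set. Ly6g had 98.6, 221, 158, 180.02 and 146 CPM, given as a description, since its antigen chose the cells. Igfbp6 was seen at 1000 UMIs in 3.73%, 22.8%, 9.75%, 22.6% and 14.3% of neutrophils and in 1.15%, 3.08%, 0.864%, 4.13% and 1.304% of the cells under 5 Ly6G UMIs. Tagln2, an actin-binding protein, had 85.98, 199, 157, 251 and 209 CPM. Steap4, a metalloreductase, had 122, 342, 259, 265 and 279.5 CPM. Tspo, a protein of the outer mitochondrial membrane, had 478, 955, 746, 911 and 662 CPM. Each of these 7 genes was called lower in Hashtag1 with and without the marker-rich cells. Hashtag2 and Hashtag4 held the highest levels of Igfbp6, Wfdc17, Ifitm1, Ly6g and Tspo.

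**Figure D5:**
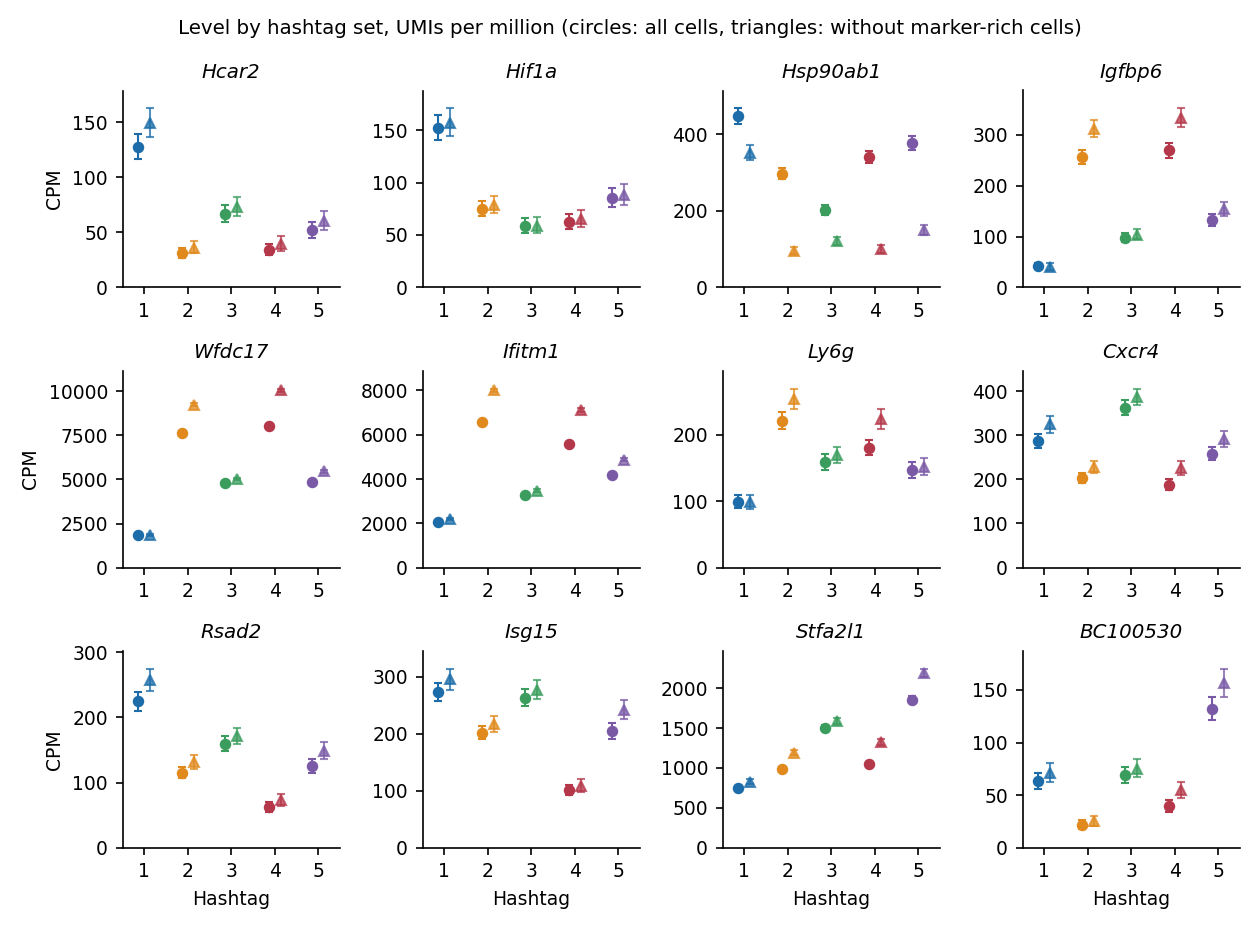
CPM of 12 genes in neutrophils of Hashtag1 to Hashtag5, for all cells (circles) and without the marker-rich cells (triangles), each axis starting at 0 and bars giving exact Poisson 95% intervals. Hcar2, Hif1a and Rsad2 are highest in Hashtag1, Igfbp6, Wfdc17 and Ifitm1 lowest there, Isg15 is lowest in Hashtag4 and the 2 stefin genes are highest in Hashtag5.

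Of 12 specific granule genes 5 were called lower in Hashtag1 in all cells (Camp, Ngp, Ltf, Chil3 and Anxa1; background 2.14%) and 3 of 11 without the marker-rich cells (Camp, Chil3 and Anxa1; background 2.35%). Over the 12 alternatives 1 to 5 were called lower, the 1 without the 5% of cells with most UMIs. Camp, Ngp and Ltf each had over 90% of the UMIs of their highest set in 5 cells. Camp, the cathelicidin gene, had 1.19, 449.7, 52.7, 12.4 and 395 CPM, but its Hashtag2 UMIs came from 8 cells, and with 1.14, 124, 57.5, 15.4 and 9.77 CPM without the marker-rich cells it still rested on between 4 and 11 cells per set. Anxa1, a protein that dampens inflammation, had 526, 807, 912, 896 and 783 CPM. Genes of azurophil granules, made earliest in the marrow, did not reach a mean of 20 CPM in any case, and the 7 that the file held summed to between 17.6 and 29.9 CPM.

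Hashtag2 neutrophils had the highest Ifitm1 and the lowest Hcar2, Il1r2 and Atf3. Hashtag4 was the next-lowest set for Hcar2 and Atf3, with levels close to those of Hashtag2, so low levels of both were shared. Few genes were called, 13 higher (0.29%) and 33 lower (0.736%), and 10 (0.242%) and 67 (1.62%) without the marker-rich cells. Ifitm1 and Ly6g were called higher both ways, with log2 ratios of 0.80 and 0.60 in all cells and 0.86 and 0.66 without the marker-rich cells. The values of Ly6g are a description only, since its antigen chose the cells. Rufy4, an adaptor of autophagy and lysosomes, had 35.4, 68.8, 29.96, 44.8 and 47.7 CPM, also higher both ways. The rule further named Camp, Ear2 and Smc6 as higher. Ear2, a ribonuclease, had 36.8, 119, 27.4, 117 and 75.4 CPM in all cells and 5.702, 5.91, 5.77, 7.03 and 9.18 CPM without the marker-rich cells, so that its order was not kept. Smc6, a chromosome maintenance protein, had 19.95, 81.95, 25.5, 71.8 and 55.5 CPM and 9.69, 15.5, 10.6, 15.1 and 17.5 CPM. Lower in Hashtag2 was Il1r2, the decoy receptor for interleukin-1, with 331, 170.2, 186, 264 and 303 CPM. Atf3, a stress-induced transcription factor, had 38.5, 13.02, 46.7, 14.7 and 27.7 CPM, lowest in Hashtag2 and highest in Hashtag3. With TMM factors the calls were 21 higher and 25 lower, in place of 13 and 33.

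Ribosomal protein genes of Hashtag2 had a median log2 ratio below 0 in all cells (-0.17) and under each of the 12 alternatives (-0.45 to -0.10), but of 0.39 in the few cells with at least 50 Ly6G UMIs. In all cells 0 of 87 were called either way there, while Hashtag3 had 12 called lower (background 3.61%) and Hashtag4 had 1 called higher (background 2.52%). Without the marker-rich cells 9 of 85 were called lower in Hashtag2 (background 1.62%) and 0 in Hashtag3, and 74 of 85 had their lowest level in Hashtag2 (33.4% of all genes did). Their sum was 40648, 31162, 40941, 37931 and 45993 CPM, against 60839, 53657, 51862, 66410 and 65094 CPM in all cells. The median log2 ratio in Hashtag2 was then -0.45, where the median of all genes was -0.11; with TMM factors it was -0.35 against -0.0098, and 3 of 85 were called. Transcripts of the S100 list took the largest part of the sums and were highest in Hashtag2, with 197094, 247739, 200663, 228565 and 183762 CPM without the marker-rich cells. How far one moved the CPM of the other was not tested.

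Hashtag3 neutrophils had the highest Cxcr4, Hist1h1c and Atf3. In all cells 11 genes were called higher (0.245%) and 162 lower (3.61%), and without the marker-rich cells, fewest in Hashtag3 (3.71%), 15 (0.363%) and 20 (0.484%). With TMM factors the calls in all cells were 23 and 121. Higher in Hashtag3 was Cxcr4 (ENSMUSG00000045382, chromosome 1, 128588199 to 128592293), the receptor for CXCL12, with 286, 202, 362, 188 and 258 CPM. Hist1h1c, a linker histone, had 248, 190.3, 343, 177 and 235 CPM. Hashtag1 was the next set for both. Hist1h1c was again called without the marker-rich cells (0.60) and Cxcr4 was under the 1.5-fold limit (0.53), with 325, 228, 386, 225 and 292 CPM. Atf3 was called higher in Hashtag3 both ways. In all cells Hashtag1 was also its next set, and Hashtag2 and Hashtag4 were far lower than both. Cxcr4 was seen at 1000 UMIs in 28.6%, 19.2%, 31.9%, 20.1% and 23.5% of neutrophils, and in 4.21%, 4.79%, 9.499%, 5.41% and 9.57% of the cells under 5 Ly6G UMIs. The Hashtag3 and Hashtag1 intervals of Cxcr4 did not overlap (345 to 379.6 and 270.3 to 303).

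Of the 162 genes lower in Hashtag3, the rule named Ear2, Klf4, Cx3cr1 and Lgals1. Klf4, a transcription factor of monocytes, had 36.8, 81.4, 28.9, 117 and 70.4 CPM in all cells and 6.56, 4.78, 4.57, 4.33 and 7.11 CPM without the marker-rich cells. Cx3cr1, the fractalkine receptor, had 71.3, 102, 37.5, 109 and 80.4 CPM and 6.56, 5.004, 5.29, 5.14 and 4.74 CPM. Lgals1, galectin-1, had 54.6, 53.3, 26.3, 80.9 and 65.2 CPM and 6.84, 4.78, 4.33, 5.14 and 7.699 CPM. Without these cells all 4 were under the mean of 20 CPM, so none could be called. Among the 19 monocyte/macrophage markers 9 were called lower in Hashtag3 (background 3.61%). In Hashtag1 4 of them were called higher (background 1.78%) and 1 lower (background 2.14%), and in Hashtag4 3 were called higher (background 2.52%). Genes called lower in Hashtag3 both ways included Hif1a, Hspa8, Acod1 and Ier3, an immediate early gene with 137, 107, 68.3, 114 and 83.9 CPM. Pim1, a kinase that supports survival, had 569, 361, 265, 366 and 261 CPM, was called higher in Hashtag1, and was called lower in Hashtag3 without the marker-rich cells.

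Members of the receptor, membrane protein and oxidase lists were called in some sets. Of all genes 9.37% were called in at least 1 set, and 8.66% without the marker-rich cells. Of 12 receptors that mark maturation and age, Tlr2, Il1r2 and Cxcr4 were called in 1 set each in all cells, and Tlr2, Il1r2 and Itga4 without the marker-rich cells. Cxcr2 had 2361, 1965, 2023, 1984 and 2099 CPM, highest in Hashtag1 but without a call. Of 10 genes of gelatinase granules and secretory vesicles, Adam8, a membrane protease, was higher in Hashtag1 both ways with 292, 189, 197, 162 and 206 CPM. Cybb, the catalytic subunit of the NADPH oxidase, had 295, 323, 193, 362 and 264 CPM and was called lower in Hashtag3. It had 102, 54.4, 72.6, 69.7 and 45.01 CPM without the marker-rich cells and was then called higher in Hashtag1 and lower in Hashtag5. The other 5 measured oxidase genes were not called either way. Retnlg, a resistin-like protein, had 12392, 9244, 13847, 13112 and 11651 CPM, lowest in Hashtag2.

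Of 8 survival genes Pim1, Bcl2a1b and Pmaip1 were called in all cells (background 9.37% called in at least 1 set). Without the marker-rich cells Pim1 and Pmaip1 were called (background 8.66%) and Bcl2a1b was under the mean of 20 CPM. Of 9 Fc and complement receptors Fcgr2b was called, higher in Hashtag4 and lower in Hashtag3, and 0 of 8 without the marker-rich cells. Of 12 mitochondrially encoded genes 11 were highest in Hashtag4 in all cells (24.8% of all genes were), with 2 called, and 3 of 10 without the marker-rich cells (13.2% of all genes), with 0 called. Over the 12 alternatives 0 to 6 were called higher there. Of 14 circadian clock genes only Cry1 reached a mean of 20 CPM, with 21.9, 18.9, 22.5, 26.4 and 26.6 CPM and no call.

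Surface antibodies were counted in the same cells. The Ly6G antibody, part of the rule, had medians of 18, 21, 19, 22 and 18 UMIs per cell. CD11b, an integrin, had medians of 16.5, 16, 20, 17 and 20.5 UMIs in all cells and 16, 15, 19, 16 and 20 UMIs without the marker-rich cells. The CXCR4 antibody had a median of 11 UMIs in all 5 sets and of 8 UMIs in the cells under 5 Ly6G UMIs of every set. The CD115 antibody, against the product of Csf1r, had a median of 5 UMIs in Hashtag1 and 6 in the others. Ly6G and CD11b antibodies were added with the hashtags, ahead of a second antibody labelling, per the labels.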

How the data were processed

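The pooled library of blood and heart cells held whole-number UMI counts per gene, hashtag and antibody, which the authors made with Cell Ranger 3.0.2, per the file headers, on mm10, per the submitters' processing notes; the annotation release is not given in the sources used here. The deposited counts were used without normalization. UMIs were summed over the cells of a hashtag and divided by the sum (CPM), and genes with a mean of at least 20 CPM over the 5 sets were compared with the mean of the other 4 sets. No count model was fitted, since each hashtag is 1 set. TMM factors came from edgeR 4.0.16 (R 4.3.3); the rest used python 3.11.15, numpy 2.4.6, scipy 1.17.1 and pandas 2.3.3. The procedure was tested on simulated sums with Poisson counting error and known 2-fold changes in Hashtag3. These sums held no single cells, so the test did not cover marker-rich cells or genes whose UMIs lie in few cells. Coordinates are those of GENCODE M21 (GRCm38).

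Named were, in each set and direction, the 4 called genes furthest from the other sets with a mean of at least 50 CPM and at least 30 UMIs on the higher side, leaving out mitochondrial, ribosomal, haemoglobin, Gm and Rik genes, and up to 4 members of each list with the widest range; genes such as Trib1, Cd9, Wfdc17, Steap4, Tspo, Tagln2, Ly6g, Mif, Lilrb4a, Basp1 and Rufy4 were chosen after their values were seen. Cells and lists were chosen with earlier results of these data known. Alternatives covered scaling, filters, gates, the reference and cell depth. Thinning to 1000 UMIs left out 1, 4, 7, 1 and 4 cells. Some members of the lists are counted but not reported here by name. Transcripts of near-identical copies are uncertain in their split.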

Additional observations from a re-analysis of the deposited data

How the results depend on the processing

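Calls kept within 1.5 times of their number in all 5 sets with TMM factors, the median of the other sets as reference, a hashtag count of at least 50, at most 5% mitochondrial UMIs, at least 500 genes, and neutrophil above monocyte/macrophage marker UMIs. With every cell of equal weight Hashtag3 had 48 and Hashtag5 60 calls, and with a hashtag ratio of 10 Hashtag3 had 104. From Hashtag1 to Hashtag5, no low-value filter gave 2787, 2037, 2912, 2902 and 2336 calls, a mean of at least 100 CPM gave 43, 10, 36, 32 and 13, a 2-fold limit 50, 11, 35, 31 and 14, and the nearest other set as reference 54, 5, 34, 24 and 9. At 1000 UMIs per cell Hashtag1 had 319, Hashtag2 190 and Hashtag5 180. Without the 5% of cells with most UMIs Hashtag3 had 51. Leaving out the marker-rich cells, Hashtag2 had 77, Hashtag3 35 and Hashtag5 57; with TMM factors as well Hashtag3 had 39 and Hashtag5 68; and without genes of few cells as well Hashtag2 had 73 and Hashtag3 34. A limit of 50 Ly6G UMIs left 5, 27, 19, 34 and 13 cells and gave 2823, 879, 1258, 924 and 1315 calls. Fewer genes were tested under the stricter filters and fewer cells under the stricter limits; otherwise the cause was not tested.

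Of 1487 log2 ratios of named genes under these alternatives, 1441 kept their sign. Of genes called in that set 25 changed sign, and of genes not called 21. For called genes, at 50 Ly6G UMIs they were BC100530 in Hashtag2 1.00, Chil3 in Hashtag4 -0.17, Egln3 in Hashtag5 -0.94, Hif1a in Hashtag1 -0.55, Hist1h1c in Hashtag3 -0.16, Hspa8 in Hashtag1 -0.76, Ifit3 in Hashtag3 -0.043, Igfbp6 in Hashtag1 0.18, Ngp in Hashtag5 -0.24 and Pmaip1 in Hashtag5 -0.47. Without the 5% of cells with most UMIs they were Camp in Hashtag2 -3.03, Ltf in Hashtag5 -0.44 and Ngp in Hashtag5 -0.86. Without the marker-rich cells they were Ear2 in Hashtag2 -0.23, H2-Ab1 in Hashtag5 0.25, H2-Eb1 in Hashtag5 0.90, Ltf in Hashtag5 -2.55, Ngp in Hashtag5 -1.02 and Rgs10 in Hashtag4 -0.093, and with TMM factors as well Ear2 in Hashtag2 -0.12, H2-Ab1 in Hashtag5 0.16, H2-Eb1 in Hashtag5 0.81, Ltf in Hashtag5 -2.67, Ngp in Hashtag5 -1.12 and Rgs10 in Hashtag4 -0.030. No paired analysis was possible because each hashtag is 1 set in 1 library, and no replicate could be left out. Intervals cover counting error only, so that a difference between mice or between pools cannot be told apart from one between conditions or between blood and heart. The choices on marker-rich cells and genes of few cells were made after seeing the data.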
